A study of Mus musculus with 6 samples.

Results

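The 10 genes described here code for apolipoproteins, the proteins that coat lipoprotein particles. They were taken by symbol (Apoa1, Apoa2, Apoa4, Apoa5, Apob, Apoc1, Apoc3, Apoe, Apoh and Apom) from 23984 genes and joint gene features with tags in RNA records, and all 10 were found. C57BL/6 mice with a homozygous knockout of Atxn2 (Atxn2-/-) were compared with homozygous wild-type mice (Atxn2+/+) in cerebellum, hippocampus and liver. The sample labels give an age of 6 months, whereas the protocol text gives ages in weeks and names midbrain in place of hippocampus. Each of the 6 libraries pooled 3 animals, so that every combination of genotype and tissue is 1 library. The deleted part of Atxn2 and the cells in which it was deleted are not given in the sources used here. RNA was profiled by MACE (massive analysis of cDNA ends), in which a transcript gives 1 tag near its 3' end whatever its length, so tag counts can be compared between genes without a length correction.

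Apolipoproteins hold lipids in solution in blood and decide which enzymes and receptors act on a particle. Hepatocytes secrete Apob on very low density lipoproteins and Apoa1 on high density lipoproteins, while the smaller proteins move between particles. Brain has its own lipoprotein system, in which astrocytes release particles that carry Apoe, and most other members are not made by brain cells in quantity.

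Gene tags numbered 1774523 to 2727523 per library. The targeted gene, Atxn2, had 0, 1 and 2 tags in knockout cerebellum, hippocampus and liver and 167, 194 and 115 in the wild-type libraries. Xist, which female cells transcribe from the inactive X chromosome, had 0 tags in every knockout library and 34, 49 and 87 in wild-type cerebellum, hippocampus and liver, and 11 of 11 measured female-biased liver genes were lower in knockout liver. Ddx3y, a Y-linked gene, had tags in all 6 libraries, 176, 156 and 81 in the knockout and 177, 112 and 101 in wild type in the same order of tissues. Of the 10 male-biased liver genes, 6 had liver ratios above 0 and 4 below, and 1 was called higher. The sex makeup of the pools and the genotype therefore cannot be told apart in any knockout comparison here. The tissue labels held on their markers: 6 of 6 tested Purkinje cell genes were higher in cerebellum than in hippocampus, 6 of 6 hippocampal pyramidal neuron genes were lower, and 24 of 24 hepatocyte genes were higher in liver than in brain (edgeR quasi-likelihood test, Benjamini-Hochberg adjusted p under 0.05). Of all features, 13.9%, 15.9% and 35% were called in these directions.

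On GRCm38.p6, Apoa1 (46228630 to 46230469), Apoc3 (46233050 to 46235636), Apoa4 (46240844 to 46243458) and Apoa5 (46268608 to 46271921) lie in 1 cluster on chromosome 9. Apoc1 (19689480 to 19692659) and Apoe (19696244 to 19701310) are neighbours on chromosome 7. Apoa2 lies on chromosome 1 (171221564 to 171226379), Apoh on chromosome 11 (108395297 to 108414396), Apob on chromosome 12 (7977629 to 8016839) and Apom on chromosome 17 (35128997 to 35131801). No member shared a row with another named gene in the deposited table. Rows shared only with predicted, clone or pseudogene names would count as the member's own. The RefSeq promoter table of that build held 12 promoters of 8 members. Of these, 4 are shown because they set Apoe, the member with many tags in brain, beside 3 members with few, Apob, Apoa5 and Apoh. Each runs 5' to 3' from 250 bases before a transcription start to 50 after it, and capitals mark the TATAAA and TGACCT motifs on either strand. The Apoe window is chr7:19699139-19699438 on the minus strand, and those of Apob (chr12:7977427-7977726), Apoa5 (chr9:46268383-46268682) and Apoh (chr11:108395047-108395346) are on the plus strand.
Apoe: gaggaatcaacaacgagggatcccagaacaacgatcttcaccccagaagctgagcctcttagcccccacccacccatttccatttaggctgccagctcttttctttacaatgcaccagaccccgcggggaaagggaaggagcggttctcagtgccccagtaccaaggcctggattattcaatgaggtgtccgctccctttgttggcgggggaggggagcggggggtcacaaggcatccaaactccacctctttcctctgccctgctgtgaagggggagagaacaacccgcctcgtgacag
Apob: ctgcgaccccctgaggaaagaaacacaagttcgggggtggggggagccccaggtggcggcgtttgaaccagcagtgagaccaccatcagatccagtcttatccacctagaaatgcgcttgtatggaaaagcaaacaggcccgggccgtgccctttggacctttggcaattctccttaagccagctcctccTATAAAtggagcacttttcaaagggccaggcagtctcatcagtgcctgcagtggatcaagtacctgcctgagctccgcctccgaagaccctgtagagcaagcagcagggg
Apoa5: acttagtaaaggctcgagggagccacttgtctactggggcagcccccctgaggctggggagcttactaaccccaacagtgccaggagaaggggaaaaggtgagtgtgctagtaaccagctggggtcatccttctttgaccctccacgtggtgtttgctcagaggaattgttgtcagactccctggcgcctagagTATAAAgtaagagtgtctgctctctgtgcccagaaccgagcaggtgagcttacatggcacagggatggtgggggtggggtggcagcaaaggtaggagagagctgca
Apoh: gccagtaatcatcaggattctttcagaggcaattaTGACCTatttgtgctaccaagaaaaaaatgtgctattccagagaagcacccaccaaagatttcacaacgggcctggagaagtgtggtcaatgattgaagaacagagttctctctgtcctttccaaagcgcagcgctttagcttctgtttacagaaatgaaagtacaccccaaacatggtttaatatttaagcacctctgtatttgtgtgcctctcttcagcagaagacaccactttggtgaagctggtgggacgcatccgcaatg

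TATAAA, the core of the TATA box, was found in at least 1 promoter of 4 members (Apoa2, Apoa5, Apob and Apoe) and in 13.6% of the 32851 promoters of the table. In Apoe it lay in a promoter of another start, where its copies on the 2 strands overlap, and not in the window shown. TGACCT, a nuclear receptor half-site, was found in Apoa2 and Apoh and in 16.3% of all promoters. The motif CAAAGTCCA, preferred by the liver factor Hnf4a, was in none of the members' windows and in 0.475% of all. Apoa1, Apoa4 and Apom, also scarce in brain, had none of these motifs in their windows. The percentages count single promoters, whereas a member can have several. All motifs were searched on both strands, and a match describes letters, not a bound site.

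Liver held by far the most apolipoprotein tags. The 10 genes together took 9.20% of gene tags in knockout liver (95% Clopper-Pearson interval 9.16% to 9.25%) and 8.47% in wild-type liver (8.44% to 8.51%). In brain they took 0.339% of gene tags in knockout cerebellum and 0.342% in its wild-type counterpart, with 0.385% and 0.463% in the hippocampus libraries of the same order. Without Apoe the share was 0.0186% (knockout) and 0.0377% (wild type) in cerebellum, 0.0154% and 0.0614% in hippocampus. The liver shares without Apoe were nearly the same in both genotypes, at 5.70% in knockout and 5.75% in wild type. These intervals cover counting error only.

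Apoe, the ligand through which remnants and brain particles bind receptors of the LDL receptor family, was the most abundant member in all 6 libraries. Its cerebellum tags numbered 7311 in the knockout and 7191 in wild type, its hippocampus tags 8625 and 8596, and its liver tags 62203 and 74159. As levels, in counts per 1e+06 gene tags after TMM scaling (CPM), these were 2265, 2155, 2852 and 3071 in the brain libraries and 67272 and 47915 in liver. Among all features of its library, Apoe ranked 10 and 9 (knockout and wild type) in cerebellum, 5 and 4 in hippocampus, 2 and 3 in liver. Brain levels after TMM scaling were thus 3.37% to 6.41% of the liver level of the same genotype. The difference was smaller in unscaled shares of gene tags. By these Apoe took 0.305% to 0.402% in the brain libraries, 3.51% in knockout liver and 2.72% in wild-type liver.

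The other 9 members were abundant in liver and scarce in brain. Apoc1, a small protein that slows remnant uptake, followed Apoe in liver with 38334 tags in knockout and 55898 in wild type. Next came Apoa2 and Apoa1, the main proteins of high density lipoproteins, at 23687 knockout and 38140 wild-type liver tags for Apoa2 and 19547 and 32181 for Apoa1. Apoc3, an inhibitor of lipoprotein lipase, had 10434 and 16468 tags there. A middle group held Apoh, a phospholipid-binding plasma glycoprotein (3057 and 4977 tags), Apoa5, which raises lipase activity (2968 and 4882), and Apob, the scaffold of very low density lipoproteins (1708 and 2352). Apom, which carries sphingosine 1-phosphate, had 879 and 1489 tags, and Apoa4, a protein of chylomicrons and high density lipoproteins, was lowest with 498 and 561. The order was the same in both liver libraries, and only Apoh and Apoa5 were neighbours whose counting intervals overlapped. In brain the 9 genes had levels of 0.0949% to 1.07% of those in liver of the same genotype, after the TMM scaling on which these percentages depend.

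**Figure D1:**
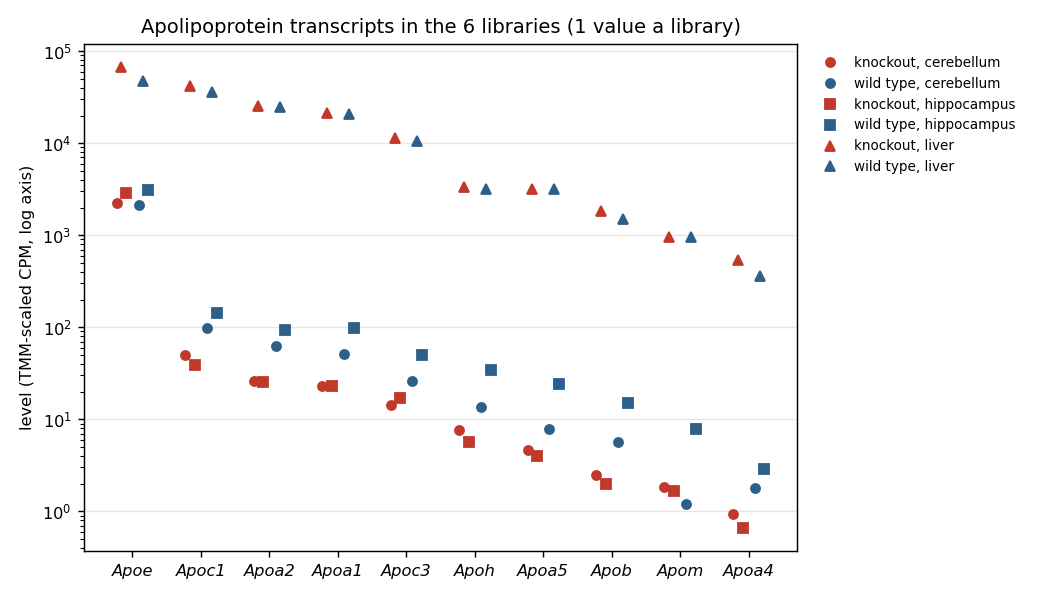
Level of each gene in TMM-scaled CPM (log axis) in each of the 6 libraries, 1 point per library, with genes ordered by their level in wild-type liver. All liver points lie above all brain points of the same gene, and Apoe alone exceeds 1000 CPM in brain. For 8 of the 9 other genes both knockout brain points lie below both wild-type brain points, the exception being Apom.

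The make-up of the apolipoprotein tags differed accordingly. Apoe made up 94.5% of them in knockout cerebellum, 89.0% in wild-type cerebellum (interval 88.3% to 89.7%), 96.0% in knockout hippocampus (95.6% to 96.4%) and 86.7% in wild-type hippocampus (86.1% to 87.4%). In liver it made up 38.1% in knockout (37.9% to 38.3%) and 32.1% in wild type (31.9% to 32.3%). Its share was thus higher in the knockout library of every tissue, and the paired intervals, which cover counting error only, did not overlap. A share also moves with the other members. Log2 knockout to wild-type ratios (TMM) of Apoe itself were 0.07, -0.11 and 0.49 in cerebellum, hippocampus and liver. Those of the other 9 summed were -1.02, -1.98 and 0.11. Apoc1, the next largest, made up 23.5% and 24.2% in knockout and wild-type liver but 1.32% to 4.02% in the brain libraries.

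**Figure D2:**
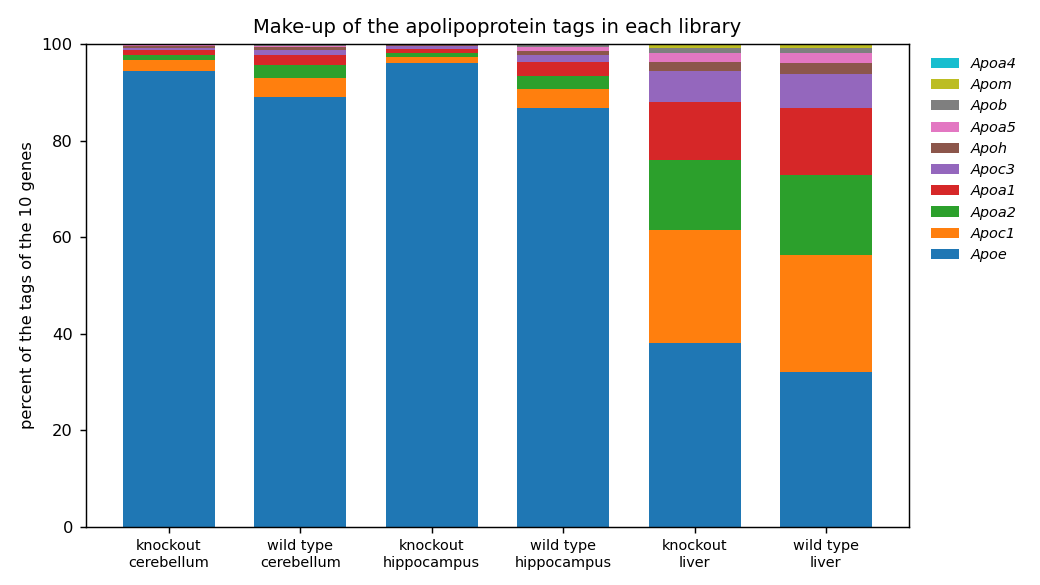
Percent of the tags of the 10 genes that each gene contributed, 1 stacked bar per library. Apoe fills 86.7% to 96.0% of each brain bar and 32.1% to 38.1% of each liver bar.

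All 10 members were higher in liver than in the mean of both brain regions, against a background of 35% of the 12878 features tested that were higher and 35.5% that were lower (edgeR quasi-likelihood test, adjusted p under 0.05). Apoe had the smallest difference, a log2 fold change of 4.48 ± 0.34 (SE, 6 libraries, adjusted p = 1.33e-11). The other 9 ranged from about 8 for Apoh (adjusted p = 2.04e-16) to 9.18 ± 0.42 for Apoa2 (adjusted p = 4.41e-16). Apoa4 (2 to 8 tags per brain library) and Apom (4 to 22) passed the filter on low counts only through liver, where they are high. Their calls are thus not counted as support. The median of the members was 8.52, while that of all features was -0.11. Scaling to library totals in place of TMM moves this contrast by -1.32 for every gene, and the members then ranged from 3.16 to 7.84, with all 10 still called. These p-values rest on 2 libraries per tissue, 1 of each genotype, and measure the spread between pooled libraries and not between animals.

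No member passed the test between cerebellum and hippocampus, where 13.9% of all features were higher and 15.9% lower in cerebellum (edgeR quasi-likelihood test, adjusted p under 0.05). At an unadjusted p under 0.05 there were 2 of 10 members, Apoa5 and Apom, beside 38.2% of all features, DESeq2 called 0, and limma voom called 1, Apoe, beside 15.0% of all features lower. Apoe had a log2 difference of cerebellum minus hippocampus of -0.43 ± 0.39 (adjusted p = 0.458), and all 10 members had values below 0. Single libraries decided the direction. Without wild-type hippocampus, 8 members turned positive, among them Apoc1 at 0.68 (adjusted p = 0.606) and Apob at 1.04 (adjusted p = 0.421). Without knockout hippocampus, 4 members were called lower in cerebellum, and without either 1 of the liver libraries 5 were, beside 11.5% of all features called lower without knockout hippocampus, 19.2% without knockout liver and 19.6% without wild-type liver.

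In cerebellum 5 of the liver-type members were lower in the knockout library beyond counting error, and Apoe was not. Apoa1 had 74 knockout and 171 wild-type tags, a log2 ratio of -1.16 (95% counting interval -1.57 to -0.76). Apoa2 had 85 and 210 tags, a ratio of -1.26 (-1.64 to -0.89). Apoc1 had 163 and 324 tags (-0.94, interval -1.22 to -0.67), Apoc3 46 and 86 (-0.86, -1.40 to -0.32) and Apoh 25 and 45 (-0.80, -1.57 to -0.06). These 5 genes had intervals wholly below equality, as had 8.02% of all genes at 10 CPM or more, while 7.12% had intervals above it. Apoa5 (15 and 26 tags), Apob (8 and 19), Apoa4 (3 and 6) and Apom (6 and 4) had too few tags for the interval to exclude equality. Apoe was nearly equal, with a log2 ratio of 0.07 (0.02 to 0.12).

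By a rule of size (a change of 1 or more on the log2 scale in either direction, 10 CPM or more on average, and an interval that excludes equality), 2 of the 6 members at 10 CPM or more were called lower in knockout cerebellum, Apoa1 and Apoa2, and none higher. Of all 8529 genes at that level, 0.317% were called lower and 0.129% higher. The rule replaces a test, since each tissue had 1 library per genotype and its differences could not be checked against replicates. The median log2 ratio was -0.90 over the 10 members and -0.01 over all genes at that level.

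In hippocampus the same direction was seen with larger ratios. Apoa1 had 69 knockout and 274 wild-type tags, a log2 ratio of -2.10 (-2.50 to -1.72). Apoa2 had 77 and 264 tags (-1.89, -2.27 to -1.52). Apoc1 had 119 and 398 tags (-1.85, -2.16 to -1.55). The knockout library was lower in each, by 3.61-fold for Apoc1 to 4.29-fold for Apoa1. Apoc3, with 52 and 141 tags, had a ratio of -1.55 (-2.04 to -1.08). Apoa5 had 12 and 68 tags and Apoh 17 and 96, each with a log2 ratio of -2.61. Apob had 6 and 42 tags (-2.92, -4.44 to -1.68), Apom 5 and 22 (-2.25, -4.01 to -0.81) and Apoa4 2 and 8 (-2.11, -5.38 to 0.21). Only the interval of Apoa4 included equality, and among all genes at 10 CPM or more 10.6% had intervals below equality and 12.4% above. Apoe again was nearly equal, with a ratio of -0.11 (-0.15 to -0.06).

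The rule of size called 6 of the 7 members that averaged 10 CPM or more lower in knockout hippocampus (Apoa1, Apoa2, Apoa5, Apoc1, Apoc3 and Apoh) and none higher. Apoa5 (3.97 CPM in knockout, 24.3 CPM in wild type) and Apoh (5.62 and 34.3 CPM) reached that average only through wild type. Their calls are thus not counted as support. The background was 1.05% lower and 0.421% higher of 8551 genes. Apoa4, Apob and Apom averaged below 10 CPM and could not be called. The median over the 10 members was -2.11, and over all genes at that level 0.01. In both brain regions the values moved by at most 0.04 with DESeq2 size factors or library totals.

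**Figure D3:**
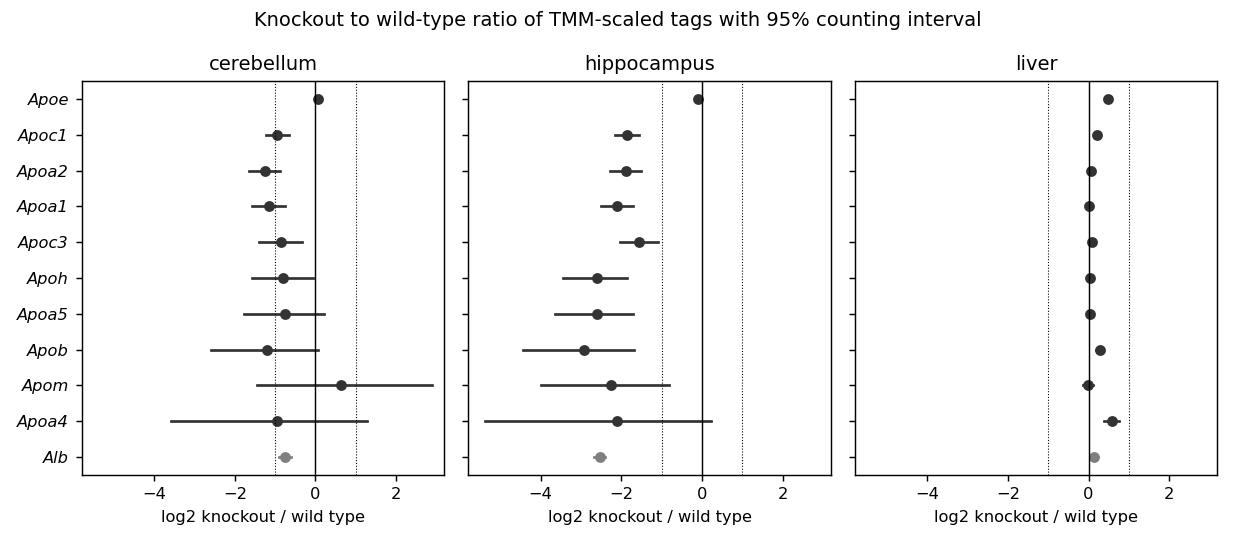
Log2 knockout to wild-type ratio of TMM-scaled tags (horizontal axis) for the 10 genes and for albumin (Alb, grey) in each tissue, with 95% counting intervals as bars. The dotted lines mark log2 ratios of -1 and 1. In hippocampus 9 of the 10 genes lie below -1, while Apoe lies at -0.11, and in liver all 10 lie between -0.02 and 0.57.

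Hepatocyte markers moved with the members in brain. Alb, the most abundant secreted hepatocyte protein, had 578 knockout and 1008 wild-type tags in cerebellum (log2 ratio -0.75, -0.90 to -0.61) and 458 and 2465 in hippocampus (-2.54, -2.69 to -2.40). The summed tags of the 9 members other than Apoe had ratios of -1.02 (-1.19 to -0.85) in cerebellum and -1.98 (-2.15 to -1.81) in hippocampus. Of the 24 listed hepatocyte genes, which include Alb, 13 were measured in cerebellum and all 13 had ratios below 0, with a median of -0.74. In hippocampus 15 were measured, all 15 below 0 with a median of -2.19. The list's summed level was 2944 CPM in knockout and 4315 CPM in wild-type cerebellum, and 565 and 2067 CPM in hippocampus. Ttr, which the choroid plexus also makes, accounted for 2456 CPM of the knockout sum and 3543 CPM of the wild-type sum in cerebellum. The hepatocyte list without Ttr summed to 488 and 771 CPM in knockout and wild-type cerebellum, with 425 and 1683 CPM in the hippocampus libraries. The other 9 listed choroid plexus genes summed to 77.4 CPM (knockout) and 118 CPM (wild type) in cerebellum, where the knockout was lower, and to 36.4 and 28.2 CPM in hippocampus, where it was higher. Cps1 was at 0 in wild-type cerebellum and in both hippocampus libraries, and Hnf4a in knockout hippocampus. Red blood cell genes went the other way, with all 5 measured in cerebellum and all 4 in hippocampus above 0, at median log2 ratios of 0.32 and 0.68, and Slc4a1 at 0 in both hippocampus libraries. Their summed levels were 812 CPM in knockout and 637 CPM in wild-type cerebellum, 211 and 139 CPM in hippocampus. The part of any of these markers in the members' ratios was not tested. In bulk tissue, fewer cells of a type and less RNA per cell cannot be told apart.

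Counted against Alb in the same library, the 9 members were at 735 tags per 1000 Alb tags in knockout cerebellum (95% interval 647 to 835) and 884 in wild-type cerebellum (807 to 968). They were at 784 in knockout hippocampus (681 to 902), 533 in wild-type hippocampus (498 to 570), 1292 in knockout liver and 1317 in wild-type liver. This ratio, which no scaling touches, spanned 533 to 1317 over the 6 libraries. The ratio of Apoe spanned a far wider range, from 622 per 1000 Alb tags in wild-type liver to 18832 in knockout hippocampus. Beside Apoe, the 13 astrocyte genes summed to 5331 CPM (knockout) and 5643 CPM (wild type) in cerebellum and to 3300 and 3628 CPM in hippocampus, with median log2 ratios of -0.08 and -0.10 over the 12 measured in each. Their part in the Apoe values was not tested.

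**Figure D4:**
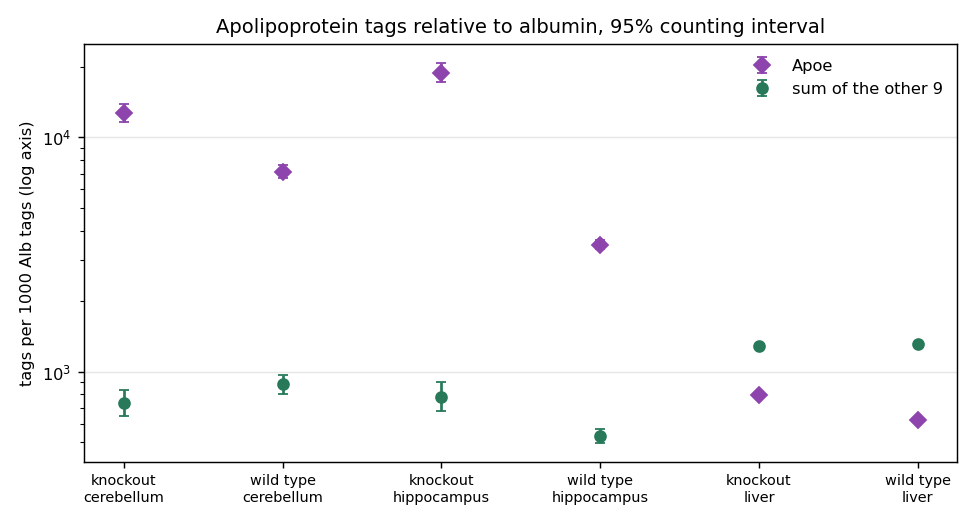
Tags per 1000 Alb tags (log axis) of Apoe and of the sum of the other 9 genes in each library, with 95% counting intervals. The sum stays between 533 and 1317, while Apoe runs from 622 in wild-type liver to 18832 in knockout hippocampus.

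Across the 3 tissues, no member passed the test between the genotypes. Of the 9 members tested (Apoa4 had too few tags), 0 passed an adjusted p of 0.05 in edgeR's quasi-likelihood test with tissue as a block, and DESeq2 and limma voom also called 0. At an unadjusted p under 0.05 there were 4 (Apoa1, Apoa2, Apoa5 and Apoh), beside 554 of all 11357 features (4.88%). The fit called 0.0881% of all features lower and 0.00881% higher. Apoa1 had a log2 fold change of -1.03 ± 0.39 (SE, adjusted p = 0.956) and Apoe of 0.15 ± 0.36 (adjusted p = 0.999). The tissues were taken from the same pooled animals as the titles number them, and the p-values measure how far tissues of 1 pool agree, not how animals vary.

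Leaving out liver changed these calls. In the fit of the 4 brain libraries, 7 of the 8 members tested were lower in the knockout (Apoa1, Apoa2, Apoa5, Apob, Apoc1, Apoc3 and Apoh), beside 0.741% of the 12011 features tested. Apob aside, their log2 fold changes ran from -1.24 ± 0.21 for Apoc3 (adjusted p = 0.000203) to -1.79 ± 0.36 for Apoa5 (adjusted p = 0.00164). Apob, at -2.12 ± 0.43 (adjusted p = 0.00264), passed the filter on low counts only through its wild-type libraries. It had 8 and 6 knockout tags in cerebellum and hippocampus, against 19 and 42 in wild type, so its call is not counted as support. These p-values are from edgeR's quasi-likelihood test. Apoe stayed at -0.02 ± 0.11 (adjusted p = 0.995). In the same fit 18 of 21 tested hepatocyte markers were lower and none higher, with a median of -1.65 beside -1.61 for the members, and the part of these markers in the members' values was not tested. Fits without hippocampus or without cerebellum called 0 members, beside 0.295% and 0.141% of all features called lower. Without a filter on low counts, it called Apoa1 and Apoa2 lower, beside 0.316% of all features.

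In liver Apoe and Apoa4 had the largest ratios, and neither reached 2-fold. Apoe was at 67272 CPM in knockout and 47915 CPM in wild-type liver, a log2 ratio of 0.49 (0.47 to 0.50) or 1.40-fold. Apoa4, at 539 and 362 CPM, had a ratio of 0.57 (0.39 to 0.75) or 1.49-fold. Apob followed with 0.28 (0.19 to 0.37) and Apoc1 with 0.20 (0.18 to 0.22). The other 6 lay between -0.02 for Apom and 0.08 for Apoc3. Intervals lay above equality for 6 members (these 4, Apoa2 and Apoc3) and for 12.2% of all genes at 10 CPM or more, and below it for 0 members and 10.1% of all. The rule of size called 0 of 10 members, beside 1.53% of 8241 genes higher and 3.41% lower.

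The liver ratios depend on scaling by more than most of them differ from 0. Library totals in place of TMM shift every liver ratio by -0.12, and DESeq2 size factors shift it by 0.10. Under all 3 scalings Apoe (0.37, 0.49 and 0.59 with library totals, TMM and DESeq2 size factors), Apoa4 (0.45, 0.57 and 0.67), Apob (0.16, 0.28 and 0.38) and Apoc1 (0.08, 0.20 and 0.30) stayed above 0 with intervals that excluded equality. Apoa1, Apoa2, Apoa5, Apoc3 and Apoh were above 0 with TMM and below 0 with library totals. With library totals these 5 and Apom had intervals wholly below equality, so that 4 members lay above and 6 below, whereas DESeq2 size factors put 9 above and 0 below. Against Alb in the same library, a ratio free of scaling, Apoe stood at 795 tags per 1000 Alb tags in knockout liver (787 to 803) and 622 in wild-type liver (617 to 628). Apoa4 stood at 6.36 (5.82 to 6.95) and 4.71 (4.33 to 5.12) and Apoc1 at 490 (484 to 496) and 469 (464 to 474). Apob was at 21.8 (20.8 to 22.9) and 19.7 (18.9 to 20.6). The other members were lower against Alb in knockout than in wild-type liver. Alb itself had a TMM log2 ratio of 0.14 (0.12 to 0.15) in liver, above those of these members. Apoa1 was at 250 (246 to 254) and 270 (267 to 273). Apoa2 was at 303 (298 to 307) and 320 (316 to 324). Apoa5 was at 37.9 (36.6 to 39.4) and 41.0 (39.8 to 42.2), and Apoh at 39.1 (37.7 to 40.5) and 41.8 (40.6 to 43.0). Intervals overlapped for Apoc3, at 133 (131 to 136) and 138 (136 to 140). They also overlapped for Apom, at 11.2 (10.5 to 12.0) and 12.5 (11.9 to 13.2). Hepatocyte markers were also above 0 in 19 of 24 cases in liver (TMM), with a median of 0.34 and summed levels of 248345 CPM in knockout and 206963 CPM in wild type, and none was at 0. Red blood cell genes were above 0 in 5 of 5 measured cases in liver, with a median of 1.06, summed levels of 1005 CPM in knockout and 535 CPM in wild type, and none at 0. The part of either list in the ratios of the members was not tested.

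**Figure D5:**
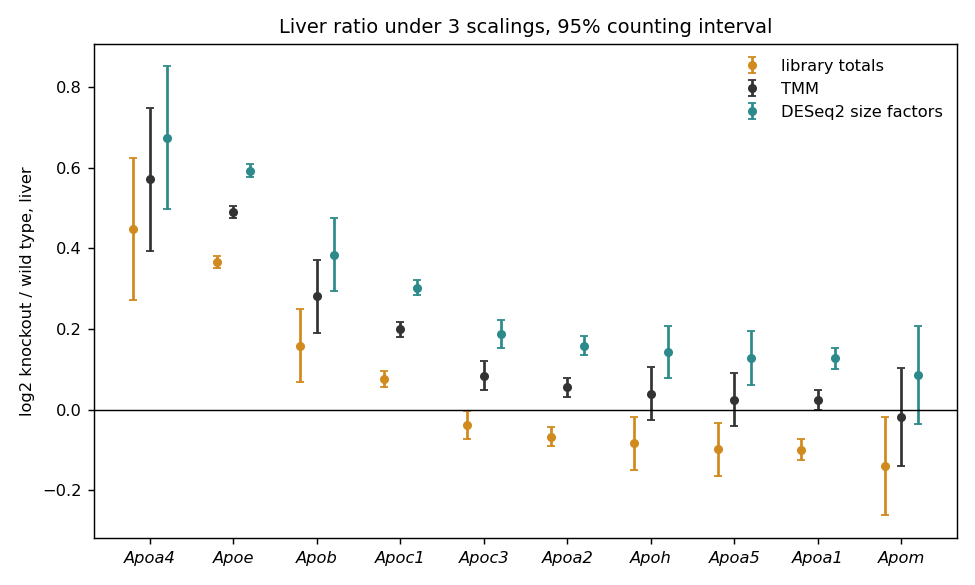
Log2 knockout to wild-type ratio in liver for each gene with library totals, TMM and DESeq2 size factors, with 95% counting intervals. Apoa4, Apoe, Apob and Apoc1 lie above 0 under all 3 scalings, while Apoc3, Apoa2, Apoh, Apoa5 and Apoa1 change sign with library totals.

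The wider lipoprotein pathway was followed through 92 listed genes, 91 of which were present. In liver 72 were at 10 CPM or more, and the rule of size called 1 higher and 2 lower, where 1.53% of all genes were called higher and 3.41% lower, so these counts are near the background. The gene called higher was Nr0b2, a repressor of bile acid synthesis (200 knockout and 162 wild-type tags, log2 ratio 1.05, 0.74 to 1.36). Those called lower were Onecut1, a liver transcription factor (5 and 45 tags, -2.43), and Saa3, an acute phase apolipoprotein (8 and 55 tags, -2.04). In hippocampus 5 of 35 were lower, among them Apoc4, Saa2, Cideb and Cebpb, beside 1.05% of all genes, and in cerebellum 0 of 31 were called. These genes were named after their values were seen. None of the 52 listed genes tested across tissues passed the edgeR test. All liver knockout to wild-type ratios of the listed genes are TMM values, which library totals shift by -0.12 and DESeq2 size factors by 0.10.

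Among the other apolipoproteins and lipoprotein-bound proteins, Apoc2, the cofactor of lipoprotein lipase and a neighbour of Apoe and Apoc1 in the gene cluster, had 1393 knockout and 1186 wild-type liver tags. Its log2 ratio of 0.98 (0.86 to 1.09) was above that of every member and just under the limit of the rule. Saa1 had 1524 and 1522 tags (0.75, 0.64 to 0.85), and Apoc4, the most abundant of this list in liver, 4228 and 6507 (0.12, 0.06 to 0.18). Of the 16 measured in liver, 12 were above 0, with a median of 0.24. In brain the list was led by Clu, the apolipoprotein J gene of astrocytes. Clu had 1976 and 1997 tags in cerebellum and 2852 and 2435 in hippocampus, with log2 ratios of 0.03 and 0.12, close to equality as for Apoe. Apoc4 had 15 and 49 tags in hippocampus (-1.82, -2.76 to -0.96).

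Of the 12 genes for particle assembly, all 12 were higher in liver than in brain (edgeR, adjusted p under 0.05), beside 35% of all features. Their median log2 fold change was 4.68. Mttp, which loads lipid onto Apob, had a fold change of 5.66 ± 0.20 (adjusted p = 3.73e-18). In liver Mttp had 231 knockout and 274 wild-type tags (log2 ratio 0.50, 0.24 to 0.75) and Cideb, a lipid droplet protein needed for particle lipidation, 1028 and 1188 (0.53, 0.41 to 0.66). Of the list's genes, 5 had liver intervals above equality and 1 below, and none was called by the rule. Among all genes at 10 CPM or more, 12.2% had liver intervals above equality and 10.1% below.

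Of 12 receptor and uptake genes tested, 7 were higher in liver and 5 in brain (edgeR, adjusted p under 0.05). Of all features, 35% were higher in liver and 35.5% in brain. Scarb1, the receptor for high density lipoproteins, was higher in liver by 4.40 ± 0.22 on the log2 scale (adjusted p = 3.29e-15). Lrp8, the brain receptor for Apoe particles and reelin, was lower in liver by a log2 fold change of -4.34 ± 0.49 (adjusted p = 2.08e-08). Lrp1, an endocytic receptor of remnants, was the most abundant receptor in both, with 525 knockout and 844 wild-type liver tags (0.06, -0.10 to 0.22). Scarb1 had 206 and 205 liver tags, a log2 ratio of 0.75 (0.46 to 1.04), and none of the receptors was called between genotypes in any tissue.

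Among the transcription factors that act on apolipoprotein genes, 21 of 24 tested were higher in liver than in brain and 2 lower. Of all features in this contrast, 35% were higher and 35.5% lower. Hnf4a, a nuclear receptor of hepatocytes, had a log2 fold change of 8.65 ± 0.25 (edgeR adjusted p = 1.51e-19) and Creb3l3 of 8.39 ± 0.27 (adjusted p = 4.35e-19). Between genotypes in liver, Hnf4a had 374 knockout and 827 wild-type tags (-0.40, -0.58 to -0.22), and Cebpa, the most abundant factor of the list there, 688 and 1007 (0.19, 0.05 to 0.33). Of the lipases and their regulators, 7 of 9 tested were higher in liver and none lower, among them Lipc (7.99 ± 0.30, adjusted p = 6.36e-18). Of the exporters 3 of 6 were higher and 3 lower, beside 35% and 35.5% of all features.

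Over the 6 libraries, the 5 genes whose pattern was most like that of Apoe included Rps27l, Gstp2, Tmem176b and P4hb. Likeness was the root mean square difference of log2 CPM after centring each gene on its own mean, which was 0.122 to 0.153 for these 5 among 6283 candidate genes. P4hb, a subunit of the complex that Mttp forms, also stands in the assembly list. For Apoa4, the member with the largest liver ratio, they were Rbp4, Mgst1, Arg1, Azgp1 and Uox, with differences of 0.129 to 0.276. Candidates had at least 10 tags in every library, whereas Apoa4 had 2 to 8 in the brain libraries, so its differences are imprecise. Rbp4 and Arg1 are also in the hepatocyte list. The 6 points of each gene share their libraries and depth, so this is a description.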

How the data were processed

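MACE libraries of 3 tissues and 2 genotypes were analysed, each a pool of 3 animals. The authors deposited raw counts of tags per RefSeq record, sense and antisense, per the file headers, and a tag matching several records stands in a joint row. CASAVA 1.8.2 and build mm9 are named in the submitters' processing notes. The aligner, and whether duplicate tags were removed, are not given in the sources used here.

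Sense counts were summed per symbol (23984 features, 4948 of them joint). Rows of genomic contigs (16.0% to 21.3% of all tags) and tags without a match (7.21% to 8.83%) name no gene and were left out, as were 36 other per-sample columns. Antisense tags took 7.75% to 10.5%. CPM are gene tags per 1e+06 after TMM scaling. Within a tissue, ratios carry exact Clopper-Pearson 95% counting intervals, with 0 set to a floor of 3 counts. Positions and promoters are RefSeq's on GRCm38.p6.

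Models were fitted with edgeR 4.0.16 (quasi-likelihood, filterByExpr) in R 4.3.3 over all features: genotype with tissue as block (11357 features), and tissue contrasts with genotype as a term (12878). In the tissue contrasts a feature could pass the filter through a single tissue, also the one where it was high. P-values were adjusted by Benjamini-Hochberg at 0.05. The scripts were tested on simulated data. Alternatives were other scalings, filters, size limits, row rules, DESeq2 1.42.0, limma 3.58.1 voom, no tissue or genotype term, and each library or tissue left out. The members and lists were chosen with earlier results of these data known. Named genes are all members, up to 6 called genes of each list with the largest log2 values, each list's most abundant genes, and the 5 most similar patterns. A few genes that this rule takes are not reported here.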

Additional observations from a re-analysis of the deposited data

Results flagged for a closer look

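For 5 members, counting intervals lay on opposite sides of equality in 2 tissues, and with 1 library per genotype the difference between tissues was not tested. Apoa2 had log2 knockout to wild-type ratios of -1.26 in cerebellum and -1.89 in hippocampus, against 0.06 in liver. Apoc1 had -0.94 and -1.85 in the brain regions against 0.20 in liver, and Apoc3 had -0.86 and -1.55 against 0.08. Apob had -2.92 in hippocampus against 0.28 in liver. Apoe had -0.11 in hippocampus, against 0.07 in cerebellum and 0.49 in liver. With library totals in place of TMM, the liver ratios of Apoa2 and Apoc3 were -0.07 and -0.04, so these genes then lay below equality in all 3 tissues.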

How the results depend on the processing

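Animals could not be paired within a tissue, because each group has 1 pooled library. Tissue was a block in the genotype test and genotype a term in the tissue contrasts instead. The liver against brain contrast kept all 10 calls under every alternative run. The genotype test across tissues called 2 members with no filter on low counts (0.316% of all features), and 0 to 7 with each tissue left out. Without a tissue block, log2 values turned to 0.017 for Apoa1, 0.050 for Apoa2, 0.014 for Apoa5, 0.27 for Apob, 0.19 for Apoc1, 0.078 for Apoc3 and 0.024 for Apoh, none of them called in that fit. With each tissue left out, Apob ranged from -2.12 without liver to 0.045 without hippocampus, and Apoe from -0.019 without liver to 0.27. Apom was not tested without liver, and was at -0.56 without cerebellum and 0.038 without hippocampus. Cerebellum against hippocampus gave 2 calls with no filter, 1 with limma voom and 1 with rows of 1 symbol only, beside 9.49%, 15.0% and 16.4% of all features lower in those fits, and 0 to 5 with each library left out. With each library left out, that contrast ranged from -1.23 to 0.37 for Apoa1, -0.90 to 0.45 for Apoa2, -1.30 to 1.20 for Apoa4, -1.90 to 0.54 for Apoa5, -1.90 to 1.04 for Apob, -0.83 to 0.68 for Apoc1, -1.23 to 0.036 for Apoc3 and -1.61 to 0.78 for Apoh. The lowest values came without knockout hippocampus and the highest without its wild-type counterpart. The cause of these reversals was not tested. In cerebellum a size limit of 0.58 in place of 1 called 5 members lower, beside 2.05% of all genes at 10 CPM or more. Among these 5, Apoh (7.74 CPM in knockout, 13.5 CPM in wild type) averaged 10 CPM only through wild type. With all tags as denominator, the members' share was 0.210% (knockout) and 0.212% (wild type) in cerebellum, 0.237% and 0.277% in hippocampus, 6.29% and 5.78% in liver. With rows of 1 symbol only, it was 0.370% and 0.370%, 0.423% and 0.509%, and 10.4% and 9.63%, since that rule drops joint rows from the total. Depth limits the brain values of Apoa4, Apom and Apob, which rest on 2 to 42 tags.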
